A study of Homo sapiens with 12 samples.

Results

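Cell-surface proteins that antibodies, radioligands or engineered T cells are directed against in prostate cancer were followed at the RNA level in castration-resistant cells treated with an AKT inhibitor, an EZH2 inhibitor or both. The 9 genes were chosen by name, from what is known of them as targets, but with earlier results of these data known. They are FOLH1, STEAP1, STEAP2, STEAP4, PSCA, CD276, DLL3, CEACAM5 and EPCAM. All 9 are among the 58735 genes with deposited counts, and 8 had enough reads to be tested, CEACAM5 being the exception. The cells were C4.2B, a single human line derived from LNCaP that grows despite castration. All 4 arms, of 3 plates each, were collected 24 hours after a switch to medium with 10% charcoal-stripped FBS, serum depleted of androgens. The arms were DMSO vehicle, ipatasertib (AKTi) at 0.25 μM, tazemetostat (EZH2i) at 1 μM, and both agents at these doses (combo), and the EZH2i and combo cells had been in tazemetostat for 6 days beforehand. The plates came from 1 line, and the authors describe seeding them in triplicate after the pretreatment. Whether the plates of an arm shared 1 pretreated culture is not stated. So p-values measure the spread between plates and not between pretreatments, tumors or lines. RNA was measured, not surface protein.

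These 9 genes encode proteins of different kinds. FOLH1 encodes PSMA, a membrane peptidase and the target of PSMA radioligands, and the STEAP genes encode membrane proteins of a family of metal reductases. PSCA is a small protein anchored in the membrane by a lipid, CD276 (B7-H3) belongs to the B7 family of immune checkpoint ligands, and EPCAM is an epithelial adhesion molecule. DLL3 is a Notch ligand known from neuroendocrine tumors, and CEACAM5 (CEA) is an adhesion molecule of gut epithelium that is also studied as a target in neuroendocrine prostate cancer. AKT and EZH2 bear on such genes along different routes: AKT is a kinase below PI3K whose inhibition is known to raise growth factor receptor signaling, and EZH2 silences genes by trimethylating lysine 27 of histone H3.

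The 12 libraries held 14133755 to 22276417 counts each. Libraries of 1 arm were distinct: the chi-square per gene of their counts was 2.53 to 7.50, where sampling noise gives about 1. The cells had the markers of prostate luminal epithelium: all 6 genes of a luminal list (HOXB13, FOXA1, KRT8, KRT18, KLK3 and TMPRSS2) were well expressed. Their summed level was 2624 to 2765 CPM (counts relative to library size, scaled by TMM) in DMSO and 3933 to 4079 with AKTi, and it reached 4971 to 5144 with EZH2i and 5945 to 6157 in the combo. Most of the rise to the combo came from KLK3, from 1372 to 3941 CPM, and TMPRSS2, from 54.1 to 668. FOXA1, KRT8 and KRT18 were also higher there, and HOXB13 was lower, at 294 against 424 CPM in DMSO. Of 3 basal markers (TP63, KRT5, KRT14) none could be tested, with sums of 0 to 0.368 CPM, and 4 immune markers summed to at most 1.17 CPM. Of 5 fibroblast markers 2 could be tested, with sums of 5.75 to 8.95 CPM in DMSO and 17.2 to 18.7 CPM in EZH2i, nearly all from COL1A1, while COL1A2, DCN and LUM were at or near 0. Of 3 endothelial markers only VWF could be tested, with sums of 2.16 to 2.95 CPM in DMSO and 5.07 to 7.38 CPM in the combo, and PECAM1 and CDH5 were at or near 0. The part of these marker levels in the results was not tested.

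Per length, FOLH1 was the most abundant target in every arm. In DMSO its level was 261 ± 6.16 (SD, n = 3) as RPKM, reads scaled for gene length and library size, and it stood 141st of 16646 tested genes. STEAP1 followed at 130.1 ± 10.3 RPKM, then STEAP2 at 58.4 ± 2.50, EPCAM at 50.3 ± 1.79 and CD276 at 26.4 ± 0.313. DLL3 at 6.02 ± 0.819 and PSCA at 2.31 ± 0.701 RPKM were expressed at a low level, STEAP4 had 9 counts over the DMSO arm, and CEACAM5 had none. No neighbours in this order overlapped between their libraries except STEAP4 and CEACAM5.

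The order of the lower targets changed with treatment. In EZH2i, CD276 (46.4 RPKM) stood above EPCAM (37.3 RPKM) and PSCA (7.53 RPKM) above DLL3 (3.30 RPKM), without overlap between the libraries. In the combo, PSCA reached 12.2 RPKM against 2.75 RPKM for DLL3, whereas CD276 at 31.9 RPKM was again below EPCAM at 41.1 RPKM. STEAP2 drew level with STEAP1 in the combo, at 136 against 139 RPKM, and their libraries overlapped, the only such overlap between neighbours in the combo. FOLH1 stood 141st in DMSO, 88th in AKTi, 119th in EZH2i and 66th in the combo. Its rank thus rose also in EZH2i, where its mean was lower (242 against 261 RPKM in DMSO), so rank does not track its level alone.

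**Figure D1:**
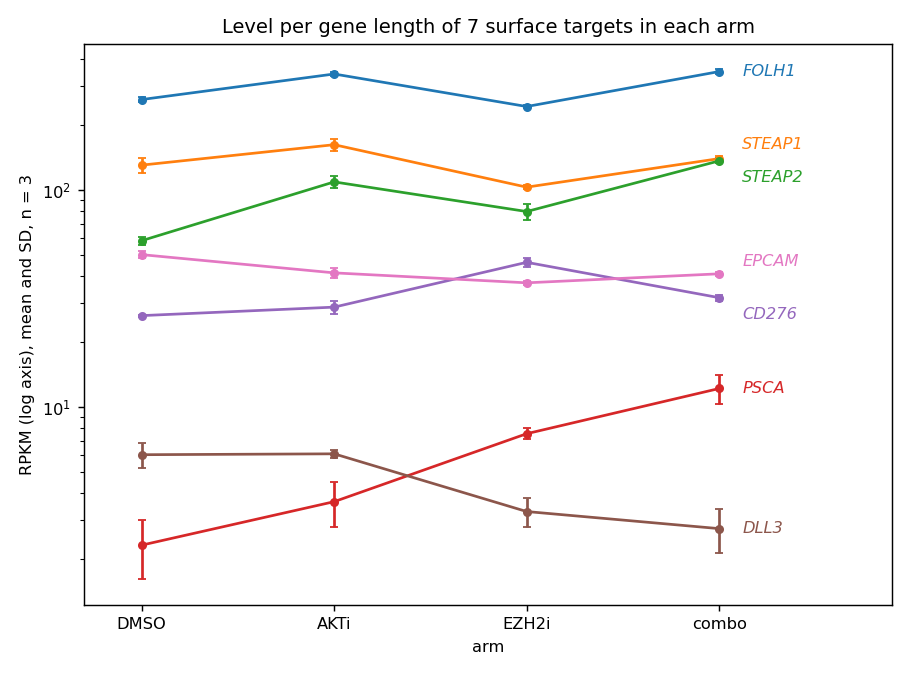
Mean level per gene length (RPKM, logarithmic axis) in the 4 arms, with SD over 3 libraries, for the 7 targets that every library detects; lines only join the arms of 1 gene. FOLH1 is highest in every arm, STEAP2 meets STEAP1 in the combo, and PSCA and DLL3 cross between AKTi and EZH2i.

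Each of the 3 treatments changed most targets, in a pattern that differed between genes. With edgeR's quasi-likelihood test and Benjamini-Hochberg adjustment over all genes, AKTi raised 4 of the 8 tested targets and lowered 1, where it changed 42.5% of all tested genes (20.6% higher, 21.9% lower). EZH2i raised 4 and lowered 3, against 64.1% of all genes changed (32.6% higher, 31.5% lower). Those raised include STEAP4, which passed the count filter only through its EZH2i libraries. The combo raised 4 and lowered 2 (6 and 1 with scaling by library size or upper quartile), against 73.2% of all genes changed (38.0% higher, 35.2% lower). So many genes changed that a call by itself sets no target apart, and direction and size carry the information. The median log2 fold change of the 8 targets was 0.22, 0.17 and 0.35 in AKTi, EZH2i and combo, and that of all tested genes was 0.01, 0.03 and 0.06. The treated libraries did not overlap the DMSO libraries for 5 targets in AKTi, 8 in EZH2i and 6 in the combo, where 51.1%, 66.2% and 74.5% of all tested genes did not. These 3 comparisons share the DMSO libraries. With scaling by library size only, the all-gene median in the combo was 0.26 and with upper-quartile scaling 0.25, so small changes depend on the scaling.

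The combo raised 4 and lowered 2 of the 8 against AKTi (64.2% of all genes changed, 32.1% higher and 32.1% lower). Against EZH2i it raised 5 and lowered 2 (46.7% of all genes, 21.1% higher and 25.7% lower). EZH2i and AKTi alone differed in all 8 tested targets, with 3 higher and 5 lower in EZH2i (50.4% of all genes, 25.4% higher and 25.1% lower). One of these calls, that of EPCAM (-0.15, adjusted p = 0.0287), was lost with library size (0.358), upper quartile (0.185), a looser filter of 1 count in total (0.105) or a stricter one of 10 in every library (0.0752), and without AKTi B (0.103) or EZH2i B (0.0727). PSCA, CD276 and STEAP4 were the 3 that were higher in EZH2i than in AKTi, and STEAP4 could be tested only through its EZH2i counts. Between these arms the libraries did not overlap for 5 targets (combo and AKTi), 7 (combo and EZH2i) and 8 (EZH2i and AKTi), against 67.9%, 53.5% and 56.0% of all tested genes.

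**Figure D2:**
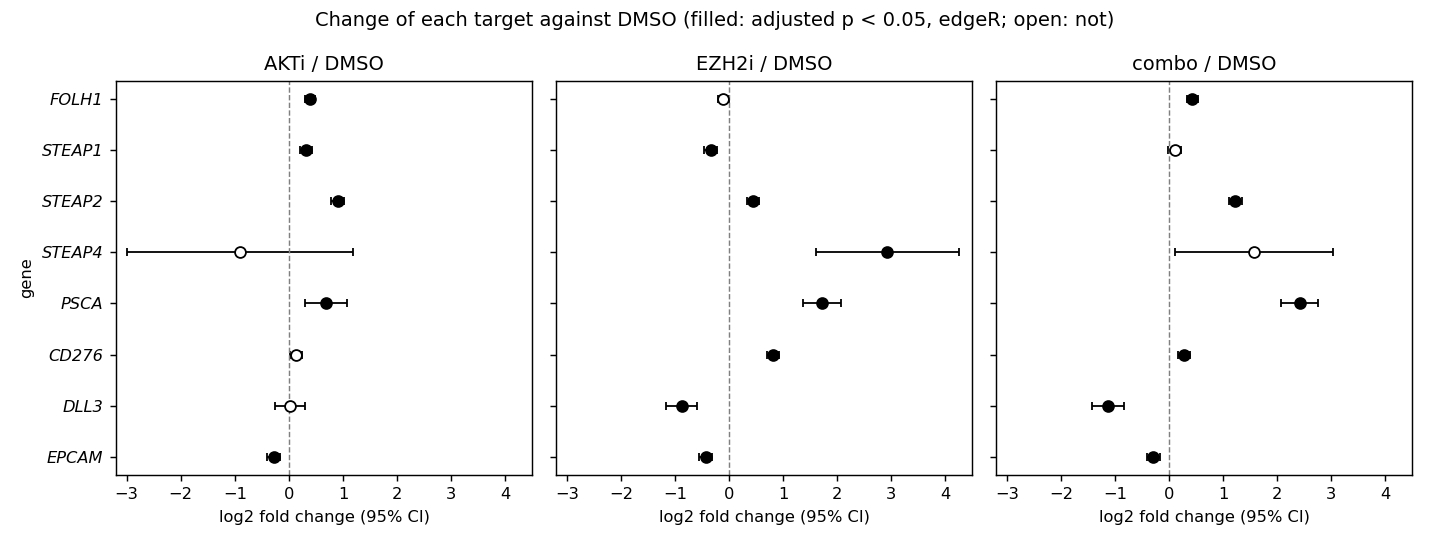
Log2 fold change against DMSO, with 95% confidence interval, of the 8 tested targets in AKTi, EZH2i and the combo; filled points passed edgeR's test at an adjusted p under 0.05 and open points did not. PSCA and STEAP2 are higher in all 3 arms and EPCAM lower in all 3, while STEAP1 is higher in AKTi and lower in EZH2i.

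FOLH1 (ENSG00000086205, hg38 chromosome 11, 49146635 to 49208670, minus strand) rose with AKTi, with or without EZH2i. Its level was 1007, 1016 and 971 CPM in the DMSO libraries, 1324, 1281 and 1323 in AKTi, 918, 914 and 948 in EZH2i, and 1359, 1309 and 1363 in the combo. All 6 libraries with AKTi were above all 6 without it, and the combo overlapped AKTi alone. The rise was 1.31-fold in AKTi (log2 fold change 0.39 ± 0.049 SE, adjusted p = 3.02e-08) and 1.35-fold in the combo (0.43 ± 0.049, adjusted p = 7.93e-10). The combo and AKTi alone differed by 0.04 (95% interval -0.06 to 0.14, adjusted p = 0.525), a difference that passed with library size (0.18, adjusted p = 0.00164) and upper quartile (0.16, adjusted p = 0.00283). In EZH2i the estimate was -0.11 (adjusted p = 0.0563): it had the opposite sign, 0.04 and 0.01, with scaling by library size or upper quartile, whereas DESeq2 called it (adjusted p = 0.00198), as did the fit when 1 of 7 libraries was left out (DMSO B or C, any AKTi library, EZH2i A or C; lowest adjusted p 0.00889).

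FOLH1 has a near-identical copy, FOLH1B, on the same chromosome, which could take reads from it. FOLH1B held 0.163% to 0.486% of the reads of both genes in each library and did not pass edgeR's test in the combo, with an estimate of -0.14 that turned to 0.06 and 0.05 with library size and upper quartile. How reads that match both copies were counted is not given in the sources used here, so this share cannot bound them. Among 5 tested genes related to PSMA in sequence or fold, 2 were higher and 2 lower in the combo, with a median log2 fold change of -0.14. NAALADL2 rose from 39.4 ± 1.06 to 139 ± 8.30 CPM (log2 fold change 1.82) and NAALAD2, a peptidase close to PSMA, rose by 1.01. TFRC, the transferrin receptor, which shares the fold of PSMA and is itself a surface antigen, fell from 1078 ± 37.6 to 113 ± 4.30 CPM (-3.25), and TFR2 fell by 1.54 on the log2 scale. In AKTi 2 of the 5 were higher and 1 lower (1 and 1 with DESeq2), and in EZH2i 2 and 2. Among all tested genes the combo changed 73.2%, AKTi 42.5% and EZH2i 64.1%.

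STEAP1 and STEAP2 lie next to each other on the plus strand of chromosome 7, and they responded differently. STEAP1 (ENSG00000164647, 90154375 to 90164829) ends 2760 bases before STEAP2 (ENSG00000157214, 90167590 to 90238137) starts. Both RefSeq starts of STEAP2 lie inside the counted gene, the first 57271 bases beyond the STEAP1 start, and the sequence at the counted gene's own start is not shown. STEAP4 lies 1847483 bases away from STEAP1. Sequences before start sites are shown because these 3 STEAP genes parted ways under treatment. They are the 250 bases upstream of each RefSeq start (GRCh38.p14) for STEAP1 (chr7:90154219-90154468, plus strand), the 2 starts of STEAP2 (chr7:90211490-90211739 and chr7:90213570-90213819, plus strand) and STEAP4 (chr7:88306895-88307144, minus strand), and capitals mark motif matches.
STEAP1: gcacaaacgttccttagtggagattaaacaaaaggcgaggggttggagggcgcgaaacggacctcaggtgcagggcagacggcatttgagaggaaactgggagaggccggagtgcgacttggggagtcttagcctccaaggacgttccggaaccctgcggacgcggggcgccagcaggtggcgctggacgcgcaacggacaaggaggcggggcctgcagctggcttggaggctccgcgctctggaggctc
STEAP2, start 1: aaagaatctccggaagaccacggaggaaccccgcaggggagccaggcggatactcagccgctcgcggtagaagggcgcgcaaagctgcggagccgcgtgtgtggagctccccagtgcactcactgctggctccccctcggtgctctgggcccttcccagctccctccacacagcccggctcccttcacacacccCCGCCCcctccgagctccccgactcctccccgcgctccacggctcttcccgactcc
STEAP2, start 2: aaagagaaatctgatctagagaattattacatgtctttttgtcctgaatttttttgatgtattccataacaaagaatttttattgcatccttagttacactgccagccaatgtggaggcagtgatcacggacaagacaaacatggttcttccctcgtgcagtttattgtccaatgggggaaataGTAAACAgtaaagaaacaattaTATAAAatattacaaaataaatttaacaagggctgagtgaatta
STEAP4: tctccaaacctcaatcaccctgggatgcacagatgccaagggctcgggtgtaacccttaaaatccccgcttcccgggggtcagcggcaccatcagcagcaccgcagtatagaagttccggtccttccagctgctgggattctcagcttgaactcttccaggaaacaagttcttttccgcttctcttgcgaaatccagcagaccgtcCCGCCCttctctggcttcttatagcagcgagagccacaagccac
Motifs were searched on both strands in windows of 300 bases, the 250 before the start and the 50 after it. They were the steroid receptor hexamer AGAACA, the forkhead motif TGTTTAC, the E-box CACGTG, the GC box GGGCGG and the TATA box TATAAA, none of which overlapped another in these 4 windows. The STEAP1 window held none of them. The first STEAP2 window had 1 GC box, on the minus strand 56 bases before the start. The second, 2080 bases on, had a forkhead match 66 bases and a TATA box 44 bases before the start, and STEAP4 had a GC box 44 bases before its start and another after it. Among 35116 RefSeq promoters, 45.0% held a GC box, 11.5% a TATA box, 3.42% the forkhead motif, 14.8% the hexamer and 7.26% the E-box. The windows also differed in base composition: STEAP1 had 66.7% G and C with 27 CpG, the first STEAP2 window 70.3% with 28, and the second 33.7% with 2, against medians of 58.7% and 14 over all promoters. Which start the reads came from is not given by gene counts, and matches are letters only. RefSeq entries were matched for 5 of the 9 genes, in 7 windows, of which the 4 above are printed.

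STEAP1 rose in AKTi and fell in EZH2i. It measured 224, 218 and 192 CPM in DMSO, 282, 256 and 251 in AKTi, 164, 172 and 166 in EZH2i, and 222, 225 and 234 in the combo. The AKTi libraries were above and the EZH2i libraries below all DMSO libraries, and the combo libraries overlapped DMSO. The log2 fold change was 0.31 ± 0.058 in AKTi (adjusted p = 2.91e-05) and -0.34 ± 0.059 in EZH2i (adjusted p = 5.13e-06). In the combo it was 0.10 (95% interval -0.02 to 0.22, adjusted p = 0.114), and with scaling by library size (0.30), by upper quartile (0.29) or over genes with at least 10 counts in every library (0.17) it passed the test. The combo was below AKTi alone by 0.21 (adjusted p = 0.00162), a call lost with library size and upper quartile (adjusted p = 0.260 and 0.191).

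STEAP2, a metalloreductase for iron and copper, rose in each arm and most in the combo. Its levels were 494, 499 and 534 CPM in DMSO, 1014, 909 and 926 in AKTi, 631, 748 and 700.3 in EZH2i, and 1201, 1149.7 and 1209 in the combo. No 2 arms overlapped, in the order DMSO, EZH2i, AKTi and combo. The rise was 1.87-fold in AKTi (log2 fold change 0.90 ± 0.058, adjusted p = 3.10e-15), 1.36-fold in EZH2i (0.45 ± 0.058, adjusted p = 1.91e-08) and 2.33-fold in the combo (1.22 ± 0.058, adjusted p = 2.25e-20). The combo also exceeded AKTi (0.32, adjusted p = 7.33e-06) and EZH2i (0.78, adjusted p = 5.93e-14).

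The counts of the 2 neighbours can be compared inside each library, where scaling cancels. The ratio of STEAP2 to STEAP1 counts, a measure chosen after the values were seen, was 2.20, 2.29 and 2.77 in DMSO, 3.60, 3.55 and 3.69 in AKTi, 3.85, 4.36 and 4.21 in EZH2i, and 5.42, 5.11 and 5.18 in the combo. No 2 arms overlapped. The mean went from 2.42 ± 0.307 in DMSO to 5.24 ± 0.164 in the combo, and each pair of arms gave a 2-sided exact permutation p of 0.1, the smallest that 3 against 3 allows. The antisense gene STEAP2-AS1 overlaps both genes and had 71 counts over the 12 libraries, and the related STEAP1B had 59, too few to be tested.

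**Figure D3:**
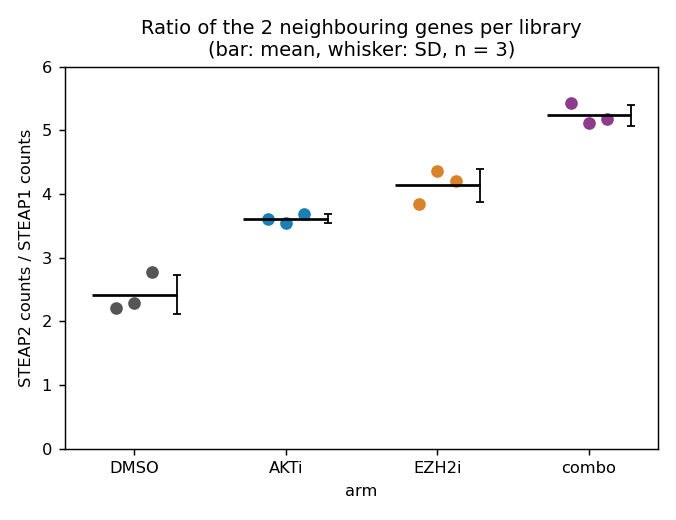
Ratio of STEAP2 to STEAP1 counts in each of the 12 libraries (points) with the mean (bar) and SD (whisker, n = 3) of each arm. The arms do not overlap, and their means run from 2.42 in DMSO to 5.24 in the combo.

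STEAP4 (ENSG00000127954, chromosome 7, 88270892 to 88306891, minus strand), a metalloreductase known from fat tissue and inflammation, was close to silent. It had 0, 5 and 4 counts in DMSO, 0, 4 and 0 in AKTi, 20, 31 and 26 in EZH2i, and 13, 5 and 12 in the combo. The EZH2i libraries stood above all others, and the combo overlapped DMSO. The summed counts of 77 in EZH2i against 9 in DMSO gave a ratio, corrected for library size, of 7.83 (95% interval 3.92 to 17.8, counting error only). By edgeR's test the log2 fold change was 2.93 ± 0.65 (adjusted p = 1.77e-04), between 2.40 without DMSO A and 3.58 without DMSO B. STEAP4 passed the count filter only through its EZH2i libraries, so calls with EZH2i as the high arm describe the counts and do not support a rise. With AKTi added, STEAP4 was lower than in EZH2i alone (ratio 0.391, interval 0.247 to 0.603, adjusted p = 0.0366). That last call was lost when any single EZH2i or combo library was left out (adjusted p 0.0506 to 0.164) and with DESeq2 (adjusted p = 0.107). The combo against DMSO (ratio 3.06, interval 1.42 to 7.33) had an adjusted p of 0.0505, and passed with library size (0.0281) and upper quartile (0.0307) and without DMSO B, AKTi B or combo B (0.0271 to 0.0491). Against AKTi the combo was higher (adjusted p = 0.0111), though not without AKTi A (0.0718) or AKTi C (0.0686). The antisense gene AC003991.1 overlaps STEAP4 and had 24 counts in all. STEAP3, the reductase of the transferrin cycle, was the only other STEAP gene tested and fell from 68.2 ± 2.66 CPM in DMSO to 16.8 ± 2.43 in the combo (-2.01), with -0.55 in AKTi and -0.56 in EZH2i, both called.

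PSCA (ENSG00000167653, chromosome 8, 142670308 to 142682724, plus strand) had the highest fold change of the 8 targets in the combo. It measured 3.10, 5.46 and 3.64 CPM in DMSO, 4.70, 7.08 and 7.58 in AKTi, 13.4, 12.4 and 14.0 in EZH2i, and 23.3, 23.4 and 17.6 in the combo. The EZH2i and combo libraries were above every library without EZH2i, and AKTi alone overlapped DMSO. PSCA was 5.35-fold higher in the combo (log2 fold change 2.42 ± 0.17, adjusted p = 1.56e-15) and 3.31-fold higher in EZH2i (1.73 ± 0.17, adjusted p = 5.39e-11). In AKTi it was 1.61-fold higher (0.69 ± 0.19, adjusted p = 0.00350). The combo exceeded EZH2i alone by 0.69 (adjusted p = 1.23e-04). The effects of AKTi with and without EZH2i differed by 0.00 (95% interval -0.58 to 0.59).

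**Figure D4:**
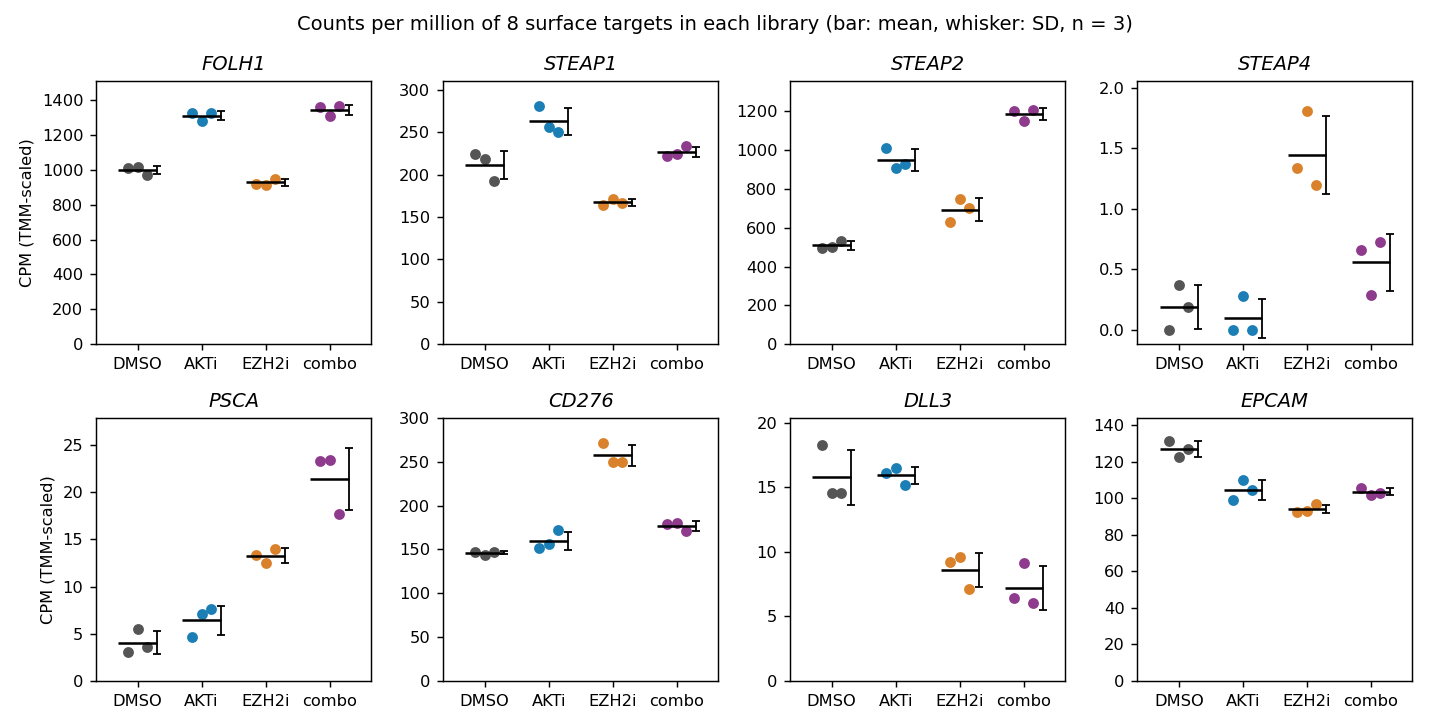
Level (CPM, counts relative to library size) of the 8 tested targets in each of the 12 libraries (points, in the order A, B, C), with the mean (bar) and SD (whisker, n = 3) of each arm. All EZH2i and combo libraries are above the others for PSCA and below them for DLL3, and FOLH1 is high in the 6 libraries with AKTi.

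The gene JRK runs antisense across 11661 bases of PSCA and had 7533 counts against 2345 for PSCA. The strand setting of the counting is not given in the sources used here. Reads of the 2 genes may therefore not be told apart, or may have been left uncounted, where the genes overlap. The level of PSCA per length, its place beside DLL3 and its fold changes carry this limit. JRK measured 35.2 ± 2.71 CPM with vehicle and 41.0 ± 4.23 with AKTi, against 37.0 ± 2.43 with EZH2i and 39.1 ± 4.74 with both agents. It passed the test in AKTi against DMSO (0.23, adjusted p = 0.0432) and in no other comparison. Of 12 other genes of the LY6 family, to which PSCA belongs, 6 were tested, with 2 higher and 1 lower in the combo and a median of 0.54. LYPD6B (0.76) and LYNX1 (0.69), a modulator of nicotinic receptors, were higher and LY6E fell by 0.39, while 1 was higher in AKTi and 2 in EZH2i with none lower. DESeq2 also called none lower in these arms and 1 higher in each, and at an unadjusted p under 0.05 there were 2 lower in AKTi and 0 in EZH2i. With scaling by library size or upper quartile 5 were higher in EZH2i. The main fit called 42.5% of all tested genes in AKTi, 64.1% in EZH2i and 73.2% in the combo.

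CD276 (ENSG00000103855, chromosome 15, 73683966 to 73714518, plus strand) rose with EZH2i and less so when AKTi was added. Its level was 26.5, 26.0 and 26.6 RPKM in DMSO and 27.4, 28.2 and 31.0 in AKTi. With EZH2i it was 49.0, 45.1 and 45.1 RPKM, and in the combo 32.3, 32.6 and 30.8. The EZH2i libraries were above all others, the combo libraries were between EZH2i and DMSO, and the combo overlapped AKTi. The log2 fold change against DMSO was 0.82 ± 0.056 in EZH2i (1.76-fold, adjusted p = 2.52e-15) and 0.27 ± 0.056 in the combo (adjusted p = 4.73e-05). In AKTi it was 0.13 (adjusted p = 0.0645), a value that passed with library size (0.19), upper quartile (0.19), the stricter count filter (0.13), only the arms compared (0.14) and without AKTi A (0.17). The combo was lower than EZH2i by 0.54 (adjusted p = 2.31e-10) and higher than AKTi by 0.14 (adjusted p = 0.0247). The second of these calls was lost without DMSO B, AKTi A, AKTi B, EZH2i A, combo A or combo B (adjusted p 0.0594 to 0.514) and with at least 1 count in total (0.168).

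Of 9 other B7 family genes only 3 had enough counts, and CD274, which encodes PD-L1, was not among them. In the combo 1 was higher and 1 lower, with a median of 0.08. VTCN1 (B7-H4), an inhibitory ligand, had 33 counts in the combo and 45 in EZH2i against 2 in DMSO, a ratio of 15.2 (95% interval 3.88 to 130.4) in the combo. VTCN1 was tested only because of its EZH2i and combo libraries, so its calls there do not support a rise. ICOSLG, the ligand of ICOS, fell by 1.35 on the log2 scale. DESeq2 called 1 of the 3 higher and 0 lower in the combo, and scaling by library size or upper quartile gave 2 and 0, so the fall of ICOSLG was not called in these fits. In EZH2i 1 was higher and 1 lower, and in AKTi none passed edgeR's test, and the count was also 0 with DESeq2 and at an unadjusted p under 0.05. Calls over all tested genes made up 73.2% in the combo, 64.1% in EZH2i and 42.5% in AKTi.

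EPCAM (ENSG00000119888, chromosome 2, 47345158 to 47387601, plus strand) was lower in every treated arm, by a modest amount. It measured 131, 122 and 127 CPM in DMSO, 99.0, 110.1 and 104 in AKTi, 92.6, 92.9 and 96.6 in EZH2i, and 106, 102 and 103 in the combo. All 9 treated libraries were below all 3 DMSO libraries, and AKTi and the combo overlapped. It fell by 0.28 ± 0.058 on the log2 scale in AKTi (adjusted p = 1.40e-04), by 0.43 ± 0.058 in EZH2i (adjusted p = 3.45e-08) and by 0.29 ± 0.057 in the combo (adjusted p = 2.25e-05). The fall in the combo did not pass with scaling by library size (-0.10, adjusted p = 0.122) or upper quartile (-0.11, adjusted p = 0.0751). The combo was higher than EZH2i alone by 0.14 (adjusted p = 0.0486), a call lost when any 1 of 9 libraries was left out (all but DMSO B, AKTi B and EZH2i C; highest adjusted p 0.230), with DESeq2 (0.0742) and with at least 1 count in total (0.297).

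EPCAM works beside claudins, tetraspanins and the proteases that cut it, and 13 of 14 such genes were tested. In the combo 8 were higher and 2 lower (median 0.30), or 10 and 1 with library size and 9 and 1 with upper quartile, in AKTi 6 and 3 (median 0.12), and in EZH2i 10 and 1 (median 0.66). The share of all tested genes called was 73.2% in the combo, 42.5% in AKTi and 64.1% in EZH2i. BACE2, a protease, rose from 0.437 ± 0.147 to 159 ± 6.20 CPM in the combo (log2 fold change 8.52) and TSPAN8, a tetraspanin, from 12 to 455 counts over the arm, a ratio of 34.8 (95% interval 19.7 to 67.9). TSPAN8 passed the count filter only through EZH2i and combo libraries, where it was high. CLDN7, a claudin that binds EPCAM, fell by 0.20, an estimate that was 0.00 and not called with library size, and the tetraspanin CD9 by 0.38.

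DLL3 (ENSG00000090932, chromosome 19, 39498895 to 39508481, plus strand) fell with EZH2i, with or without AKTi. It measured 18.2, 14.5 and 14.5 CPM in DMSO, 16.1, 16.5 and 15.2 in AKTi, 9.17, 9.59 and 7.12 in EZH2i, and 6.44, 9.11 and 6.04 in the combo. All 6 libraries with EZH2i were below all 6 without it, and within each of these groups the arms overlapped. The log2 fold change was -0.88 ± 0.14 in EZH2i (adjusted p = 1.84e-06) and -1.13 ± 0.15 in the combo (2.19-fold lower, adjusted p = 1.35e-08). In AKTi it was 0.02 (95% interval -0.26 to 0.30, adjusted p = 0.940). The combo differed from EZH2i by -0.25 (interval -0.56 to 0.06, adjusted p = 0.182), and without combo B by -0.46 (adjusted p = 0.0221).

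Most other Notch genes were higher in the combo, where DLL3 was lower. Of 8 other ligands and receptors tested, 6 were higher and 1 was lower in the combo (median 0.81; 5 and 1 with DESeq2), 4 and 0 in AKTi (median 0.21; 0 lower also with DESeq2 and at an unadjusted p under 0.05), and 4 and 1 in EZH2i (median 0.21). By comparison, the combo changed 73.2% of all tested genes, AKTi 42.5% and EZH2i 64.1%. NOTCH3, a receptor, rose from 42.0 ± 1.64 to 155 ± 9.70 CPM in the combo (1.89), and DLL4, a ligand at under 1 CPM, was higher by 1.46. JAG2, a ligand, fell by 0.75. Neuroendocrine genes, beside which DLL3 is usually read, were near 0: of 5, only POU3F2 and SYP could be tested, at sums of 1.53 to 3.39 CPM over the list in all libraries, and NEUROD1, INSM1 and CHGA had too few counts. Neither POU3F2 (-0.99 in the combo) nor SYP (0.52) passed edgeR's test in any of the 3 arms, 0 had an unadjusted p under 0.05 and DESeq2 called 0. With scaling by library size or upper quartile 1 of them was higher in the combo.

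CEACAM5 (ENSG00000105388, chromosome 19, 41708585 to 41729798, plus strand) was not detected. It had 0 counts in all 12 libraries, of 199124121 counts in all. A count of 0 allows up to 3 counts in a library, or 0.138 to 0.221 CPM, counting error only. The gene AC243967.1 overlaps 21187 bases of CEACAM5 on the same strand and also had 0 counts, so reads in that stretch may have been left uncounted. Of 11 other CEACAM genes, 2 were tested. CEACAM1, an adhesion molecule of epithelia, had 4 counts over the DMSO arm and 2 over AKTi, against 103 with EZH2i and 123 in the combo. Its ratio to DMSO was 28.3 in the combo (95% interval 10.8 to 105). CEACAM1 passed the count filter only through EZH2i and combo libraries, so its calls there describe the counts and do not support a rise. CEACAM19 did not pass edgeR's test in any arm. Its estimate of -0.13 in the combo turned to 0.06 and 0.05 with library size and upper quartile, and in EZH2i both CEACAM genes were called higher with these scalings.

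In the design of 2 agents, the effect of AKTi in the presence of EZH2i can be compared with its effect in its absence. This difference passed edgeR's test for 2 of the 8 targets, 1 in each direction, and for 28.2% of all tested genes (10.7% higher, 17.5% lower). For CD276, AKTi had an effect of 0.13 alone and of -0.54 on top of EZH2i, a difference of -0.67 ± 0.079 (adjusted p = 2.56e-08). For EPCAM, AKTi had an effect of -0.28 alone and of 0.14 on top of EZH2i, a difference of 0.42 ± 0.082 (adjusted p = 1.41e-04). Both differences passed in each alternative run. The signs of the CD276 effect alone and of the EPCAM effect on top of EZH2i were less certain, as given above.

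FOLH1, STEAP1 and STEAP2 had differences of 0.14, 0.12 and -0.12, none past the threshold (adjusted p = 0.123, 0.290 and 0.276). That of FOLH1 passed with DESeq2 (adjusted p = 0.0135) and with at least 10 counts in every library (0.0483), and that of STEAP2 passed without EZH2i A (-0.22, adjusted p = 0.0288). For DLL3 the difference was -0.27 (95% interval -0.69 to 0.15). STEAP4 had too few counts to place it, with an interval of -3.26 to 2.36.

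**Figure D5:**
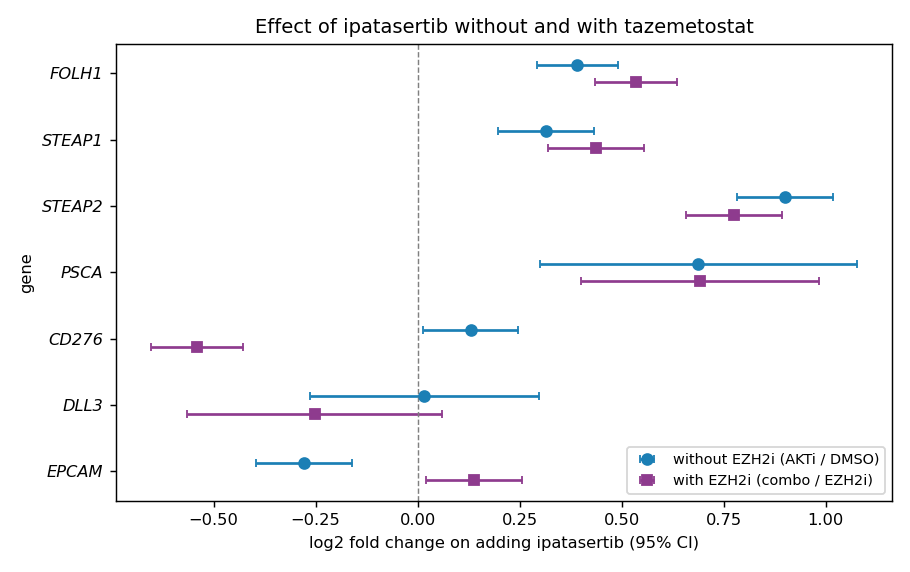
Log2 fold change on adding ipatasertib, with 95% confidence interval, without EZH2i (AKTi against DMSO, circles) and with EZH2i (combo against EZH2i, squares), for the 7 targets other than STEAP4. The intervals are apart for CD276 (0.13 and -0.54) and EPCAM (-0.28 and 0.14), and those of the other 5 genes overlap.

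Other surface antigens studied in solid tumors were examined as a list of 26, all of which were tested. In the combo 14 were higher and 6 lower (median 0.44; 17 and 4 with library size or upper quartile), in AKTi 11 and 4 (median 0.07), and in EZH2i 15 and 6 (median 0.54; 16 and 3 with these scalings). Of all tested genes, 38.0% were higher and 35.2% lower in the combo, 20.6% and 21.9% in AKTi, and 32.6% and 31.5% in EZH2i. CD24, an epithelial glycoprotein, rose from 2.31 ± 0.554 to 44.6 ± 1.60 CPM in the combo (4.22). F3 (tissue factor) had 0 counts in DMSO and AKTi against 47 with EZH2i and 303 in the combo, the latter at least 30.1-fold higher than a floor of 3 counts per DMSO library. It passed the count filter only through EZH2i and combo libraries. Of the 6 that were called lower, TFRC, above, and CDCP1, which fell by 0.91, had the lowest estimates.

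FOLH1 is often read beside androgen-responsive genes, since androgens are known to lower it. Of 8 tested androgen-responsive genes 7 were higher and 1 was lower in each arm, with medians of 0.95 in AKTi, 1.64 in EZH2i and 2.50 in the combo. For all tested genes, 20.6% were higher and 21.9% lower in AKTi, 32.6% and 31.5% in EZH2i, and 38.0% and 35.2% in the combo. TMPRSS2 rose from 54.1 ± 3.58 to 668 ± 7.88 CPM in the combo (3.62) and NDRG1 by 2.96, and FKBP5 fell by 1.65. In the luminal list, which shares KLK3 and TMPRSS2 with these, 5 of 6 were higher and 1 lower in AKTi and in the combo, and 5 higher with none lower in EZH2i, with medians of 0.39, 0.57 and 0.74 in that order. With scaling by library size or upper quartile none was lower in AKTi and 6 were higher in EZH2i, and in EZH2i DESeq2 and an unadjusted p under 0.05 also gave 0 lower.

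For each target, the protein-coding genes whose log2 CPM ran most like it over the 12 libraries were found among 11360 candidates, as a description of libraries that fall into 4 arms. FOLH1 ran with ENTPD5 (Pearson r = 0.991), AUH (0.983) and MXI1 (0.970), and STEAP1 with C11orf54 (0.963), LPAR3 (0.953) and RASSF3 (0.941). STEAP2 ran with CDK19 (0.986) and FBXO25 (0.985). PSCA ran with SPTAN1 (0.984), MRTFB (0.982) and DYNC1H1 (0.980), and 298 genes had an r over 0.95 with it, the most for any target. CD276 ran with ST14 (0.993), CANT1 (0.985) and SLC44A2 (0.983); ST14 is matriptase, a surface protease. DLL3 ran with TEX264 (0.972), RPL10 (0.968) and TFR2 (0.967), EPCAM with ZCCHC4 (0.975), CDYL (0.971) and MFF (0.964), and STEAP4 with GYG2 (0.953), ADGRB2 (0.949) and LHFPL2 (0.937).

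The nearest tested protein-coding genes on each side were also read. CFAP69, a cilium gene 7036 bases beyond STEAP2, was higher in all 3 arms, by 1.47 in AKTi, 0.66 in EZH2i and 1.35 in the combo. SRI, the nearest gene to STEAP4 on 1 side, passed in none (0.10, -0.07 and 0.09). On the sides of PSCA, ARC and THEM6 were lower in EZH2i (-1.40 and -1.02) and in the combo (-2.19 and -1.49), where PSCA was higher. Beside CD276, LOXL1 was higher in EZH2i (1.81) and the combo (2.50), and NPTN was lower in AKTi (-0.22) and higher in EZH2i (0.40) and the combo (0.18). Beside DLL3, TIMM50 was lower in all 3 (-0.42, -1.20 and -1.59) and EID2B was higher in the combo (0.47). Beside EPCAM, CALM2 was lower in all 3 arms, by 0.97 on the log2 scale in the combo. PTPRJ and TNKS1BP1 flank FOLH1 at 975793 and 8090967 bases, and changed by 0.07 (not called) and 0.35 in the combo. DMAC2 and RPS19, on the sides of CEACAM5, were lower in EZH2i and the combo.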

How the data were processed

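PolyA RNA from C4.2B cells in 4 arms was sequenced, with 3 libraries per arm labelled A to C. The authors aligned reads to hg38 with STAR and counted them per gene with HTSeq. Software versions, annotation and strand setting are not given in the sources used here. The deposited raw counts cover 58735 genes and are whole numbers. They also deposited a normalized signal from DESeq2, which served only as a check, since for gene names that occur once each value was a count over the library's size factor. The gene length deposited beside the counts belongs to no sample and was used for RPKM.

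R 4.3.3 and edgeR 4.0.16 were used. filterByExpr, at a minimum count of 10 and a minimum total of 15, kept 16646 genes, and TMM set the scaling. A quasi-likelihood fit gave each arm 1 mean over the 12 libraries, comparisons were contrasts of these, and p-values were adjusted by Benjamini-Hochberg over all genes tested at a threshold of 0.05. The interaction is (combo - EZH2i) - (AKTi - DMSO) in log2 units. At 14133755 to 22276417 counts per library, counting error among the tested targets is largest for STEAP4, whose ratios have conditional exact binomial intervals of 95%. It is not negligible for PSCA (46 to 459 counts per library) and DLL3 (100 to 303), and CEACAM5 had 0 counts. The binomial intervals and the floors cover counting error only, whereas intervals from edgeR's fit also cover the spread between plates.

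The targets and gene lists were chosen with earlier results of these data known. Genes named besides the targets and marker genes are at most the 3 best correlated with each target (mean of at least 1 log2 CPM), the nearest tested neighbours, the paralogs, and at most 4 extremes of each list in the combo. Genes overlapping a target, CD274, CEACAM19 and SYP were named after their values were seen. ACP3, listed as androgen-responsive, was not found under that symbol, and a few genes of the lists, correlations and neighbours are not reported here. The alternatives were DESeq2 1.42.0, library-size and upper-quartile scaling, filters of at least 1 count in total or 10 in every library, fits to only the arms compared, blocking on the replicate letter, and omission of each library in turn. Motifs were searched with Python 3.11.15, and promoter sequences are from RefSeq. The steps were tested on simulated data. No sequencing batch is assigned to libraries in the sources used here, so none was modelled. Protein sequences were not used here.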

Additional observations from a re-analysis of the deposited data

Results flagged for a closer look

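The effect of ipatasertib differed with and without tazemetostat for CD276 and EPCAM, as tested by the interaction in edgeR's quasi-likelihood fit over all genes. For CD276 the difference in log2 effect, with minus without tazemetostat, was -0.67 (adjusted p = 2.56e-08). AKTi alone took CD276 from 146 ± 1.74 CPM in DMSO to 160 ± 10.5, and AKTi on top of EZH2i took it from 257 ± 12.5 to 177 ± 5.36 CPM, with all 3 combo libraries below all 3 EZH2i libraries. For EPCAM the difference was 0.42 (adjusted p = 1.41e-04). AKTi alone took EPCAM from 127 ± 4.52 to 104 ± 5.55 CPM, and on top of EZH2i from 94.0 ± 2.21 to 103 ± 1.96 CPM, with all 3 combo libraries above all 3 EZH2i libraries. That rise on top of EZH2i (adjusted p = 0.0486) was lost in several alternative runs, given above. The rise of CD276 in AKTi alone was not called (adjusted p = 0.0645). Opposite signs of the 2 effects are therefore less certain than their difference. Of all tested genes, 28.2% passed the same test.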

How the results depend on the processing

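Under each alternative, the number of targets called in each comparison and the number of all genes called stayed within 1.5 times the value reported. With scaling by library size only, the combo raised 7574 and lowered 4749 genes against DMSO, with upper quartile 7502 and 4821, and with TMM 6320 and 5866. Among the targets, directions that turned were all of estimates that had not passed the test. With library size these were FOLH1 in EZH2i against DMSO (0.038), EPCAM in the combo against AKTi (0.12) and the interaction of PSCA (-0.0035). With upper quartile they were FOLH1 (0.012) and EPCAM (0.11) in the same comparisons, with at least 1 count in total the interaction of PSCA (-0.015), and with at least 10 counts in every library EPCAM in the combo against AKTi (0.051). With single libraries left out, estimates ran from -0.060 to 0.13 for DLL3 in AKTi against DMSO, from -0.017 to 0.051 for FOLH1 and from -0.11 to 0.0078 for EPCAM in the combo against AKTi, and from -0.21 to 0.17 for PSCA and -1.12 to 3.36 for STEAP4 in the interaction. STEAP4 was not tested with at least 10 counts in every library. The cause of these turns was not tested.

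No pairing of the libraries by the letters A to C was seen in the counts. Same-letter libraries of different arms had correlations of -0.058 to 0.069 over 18 pairs, and the best match in another arm had the same letter in 8 of 36 cases. Whether plates of the same letter were handled together is not stated. With the replicate block, 7 targets were called in the combo against DMSO and 12146 genes in all. The block moved 4 calls, FOLH1 in EZH2i (adjusted p = 0.0485) and STEAP4 in the combo (0.0478) against DMSO, which passed, and STEAP4 (0.0557) and EPCAM (0.0573) in the combo against EZH2i, which did not. Depth limits STEAP4 and CEACAM5 most, and small changes depend on the scaling.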
